A study of Mus musculus with 22 samples.

Results

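Haemoglobin and erythroid genes were followed across all 22 RNA-seq libraries: the 4 adult haemoglobin genes (Hba-a1, Hba-a2, Hbb-bs and Hbb-bt), the erythroid heme enzyme Alas2, the red cell anion exchanger Slc4a1, the erythroid transcription factor Klf1 and the carbonic anhydrase Car2. These genes were chosen by name for their role in red blood cells, with earlier results of these data known. Of the 9 names listed, 8 are described here, out of 55487 genes in the tables. The cells were primary splenic monocytes from male wild-type C57BL/6 mice, cultured as such or turned into macrophages with PMA, a phorbol ester, at 200 ng/mL for 5 days. Either cell type then received oxidised low-density lipoprotein (ox-LDL, the lipid particle that macrophages take up to become foam cells) at 50 µg/mL for 24 h, or vehicle. This gave 6 libraries of macrophages with ox-LDL (replicates G to L), 5 of macrophages with vehicle (A to E), 5 of monocytes with ox-LDL (7 to 11) and 6 of monocytes with vehicle (1 to 6). No group carried a transgene or deletion, per the labels, and the labels do not say how the monocytes were purified or whether each library is from its own mouse. The p-values therefore measure only the spread between these libraries, which may be technical.

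Haemoglobin carries oxygen as a tetramer of alpha and beta chains, each holding a heme group. Its genes are switched on in erythroid precursors by factors that include GATA1, which binds GATA motifs, and KLF1, which binds CACCC motifs. The mouse spleen makes red cells as well as clearing them, and reticulocytes, which have lost their nucleus, still hold globin mRNA. Splenic macrophages engulf aged red cells and recycle their iron.

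The haemoglobin genes come as pairs of near-identical copies, which bears on every count below. In the annotation of the same build (GRCm38), the coding sequences of Hba-a1 and Hba-a2 were 429 bases long and differed at 1 base (C381T, Hba-a1 base first, counted from the A of the start codon). Those of Hbb-bs and Hbb-bt were 444 bases long and also differed at 1 base (C417T, Hbb-bs base first). The stretches around these differences show how little sequence within the coding part separates a pair; the capital marks the differing base, at positions 351 to 411 for the alpha genes and 384 to 444 for the beta genes.
Hba-a1: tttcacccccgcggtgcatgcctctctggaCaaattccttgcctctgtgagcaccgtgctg
Hba-a2: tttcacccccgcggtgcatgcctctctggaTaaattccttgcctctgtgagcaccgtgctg
Hbb-bs: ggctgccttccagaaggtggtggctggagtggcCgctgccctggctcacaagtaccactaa
Hbb-bt: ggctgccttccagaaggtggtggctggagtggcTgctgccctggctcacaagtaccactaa
How the authors' counting treated reads that fit both copies is not given in the sources used here. The split of counts within a pair is therefore uncertain. The sum of a pair is affected as well if such reads were dropped or were counted in full in both rows.

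The genes lie on several chromosomes. In GRCm38, Hba-a1 (ENSMUSG00000069919) was listed at chr11:32283511-32284465 on the plus strand and Hba-a2 (ENSMUSG00000069917) at chr11:32296489-32297298, also plus. Hbb-bs (ENSMUSG00000052305) lay at chr7:103826534-103828096 and Hbb-bt (ENSMUSG00000073940) at chr7:103812524-103813996, both minus. Alas2 (ENSMUSG00000025270) was at chrX:150547375-150570638, plus, and overlapped Apex2 and Mir3620 on the other strand. Slc4a1 (ENSMUSG00000006574) was at chr11:102348824-102366203, minus, Klf1 (ENSMUSG00000054191) at chr8:84901928-84905295, plus, and Car2 (ENSMUSG00000027562) at chr3:14886273-14900770, plus. No counting strand is given, so reads from Apex2 within the Alas2 row cannot be told apart from those of Alas2.

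The 250 bases before the start are shown for Hba-a1, Hbb-bs and Alas2, whose levels moved together between libraries, and for Klf1, whose level did not follow them. Sequences are from RefSeq (GRCm38.p6), which matched 6 of the 8 genes, and are given on the gene's strand. Capitals mark GATAA and CACCC, or their reverse complements TTATC and GGGTG.
Hba-a1, chr11:32283422-32283671, plus: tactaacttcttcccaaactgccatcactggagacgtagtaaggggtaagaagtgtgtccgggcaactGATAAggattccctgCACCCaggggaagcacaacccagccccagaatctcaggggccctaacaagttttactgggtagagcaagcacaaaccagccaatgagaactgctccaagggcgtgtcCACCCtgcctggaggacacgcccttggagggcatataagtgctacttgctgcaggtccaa
Hbb-bs, chr7:103827929-103828178, minus: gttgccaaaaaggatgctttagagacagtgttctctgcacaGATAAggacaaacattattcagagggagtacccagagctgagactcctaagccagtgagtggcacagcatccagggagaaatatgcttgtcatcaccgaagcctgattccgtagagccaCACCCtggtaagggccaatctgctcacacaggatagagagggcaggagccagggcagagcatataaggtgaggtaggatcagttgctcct
Alas2, chrX:150547167-150547416, plus: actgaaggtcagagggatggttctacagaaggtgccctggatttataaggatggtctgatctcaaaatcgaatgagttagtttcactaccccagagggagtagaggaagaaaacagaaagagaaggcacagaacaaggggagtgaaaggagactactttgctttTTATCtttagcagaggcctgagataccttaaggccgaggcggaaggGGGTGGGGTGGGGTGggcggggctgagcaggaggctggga
Klf1, chr8:84901732-84901981, plus: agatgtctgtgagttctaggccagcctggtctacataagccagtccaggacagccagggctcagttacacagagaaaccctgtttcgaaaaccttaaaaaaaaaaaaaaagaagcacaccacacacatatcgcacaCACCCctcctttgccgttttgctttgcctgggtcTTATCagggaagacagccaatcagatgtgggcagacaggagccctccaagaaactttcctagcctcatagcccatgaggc
All 6 windows found held both motifs, Hba-a2 and Hbb-bt included, against 10.1% of the 32851 windows of the same length in the table. GATAA alone was in 22.6% of all windows and CACCC alone in 52.0%, searched on both strands. Alas2 had 3 GGGTG motifs end to end, Hbb-bt had 3 CACCC motifs, Hba-a1 and Hba-a2 had 2 each, and Hbb-bs and Klf1 had 1 each. Klf1, which did not follow the haemoglobin genes but had only 4 to 23 counts per monocyte library, held both motifs as well. The upstream windows of Hba-a1 and Hba-a2 shared an identical run of 247 bases, whereas those of Hbb-bs and Hbb-bt were identical at 69.26% of aligned positions. The deposited rows began upstream of the RefSeq start, by 161 bases for Hba-a1 and 168 for Hbb-bs, and by 3 to 73 bases for the other 4, so part of these windows lies inside the counted gene.

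Library totals ran between 37.3 and 50.3 in units of 1000000 counts, and levels are given as CPM (counts per 1000000), scaled with TMM factors. Neutrophil markers (12 genes, S100a8 and S100a9 among them) summed to 30067 CPM in replicate 10 and 43128 CPM in replicate 11 of monocytes with ox-LDL, and to 45801 CPM in replicate 5 and 32189 CPM in replicate 6 of monocytes with vehicle. The other 7 monocyte libraries held 4666 to 5779 CPM, so both treatment groups contain libraries of each kind. The macrophage marker list (12 genes) summed to 32677 to 46299 CPM in macrophage libraries and to 7329 to 16040 CPM in monocyte libraries. Dendritic cell markers summed to 7237 to 12201 CPM in the 11 monocyte libraries, and monocyte markers to 4046 to 18956 CPM, with the dendritic list above the monocyte list in the 7 libraries low in neutrophil markers. No library was left out unless stated.

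Haemoglobin transcripts were abundant in cultured splenic monocytes and nearly undetected in the macrophages. The 4 haemoglobin rows together took 0.000038% to 0.000077% of counts in macrophages with ox-LDL and 0.000039% to 0.000206% in macrophages with vehicle. In monocytes they took 0.0650% to 1.498% with ox-LDL and 0.0436% to 1.12% with vehicle. Every monocyte library, including the lowest, lay above every macrophage library. In bulk libraries, fewer cells of a type and less RNA per cell cannot be told apart.

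**Figure D1:**
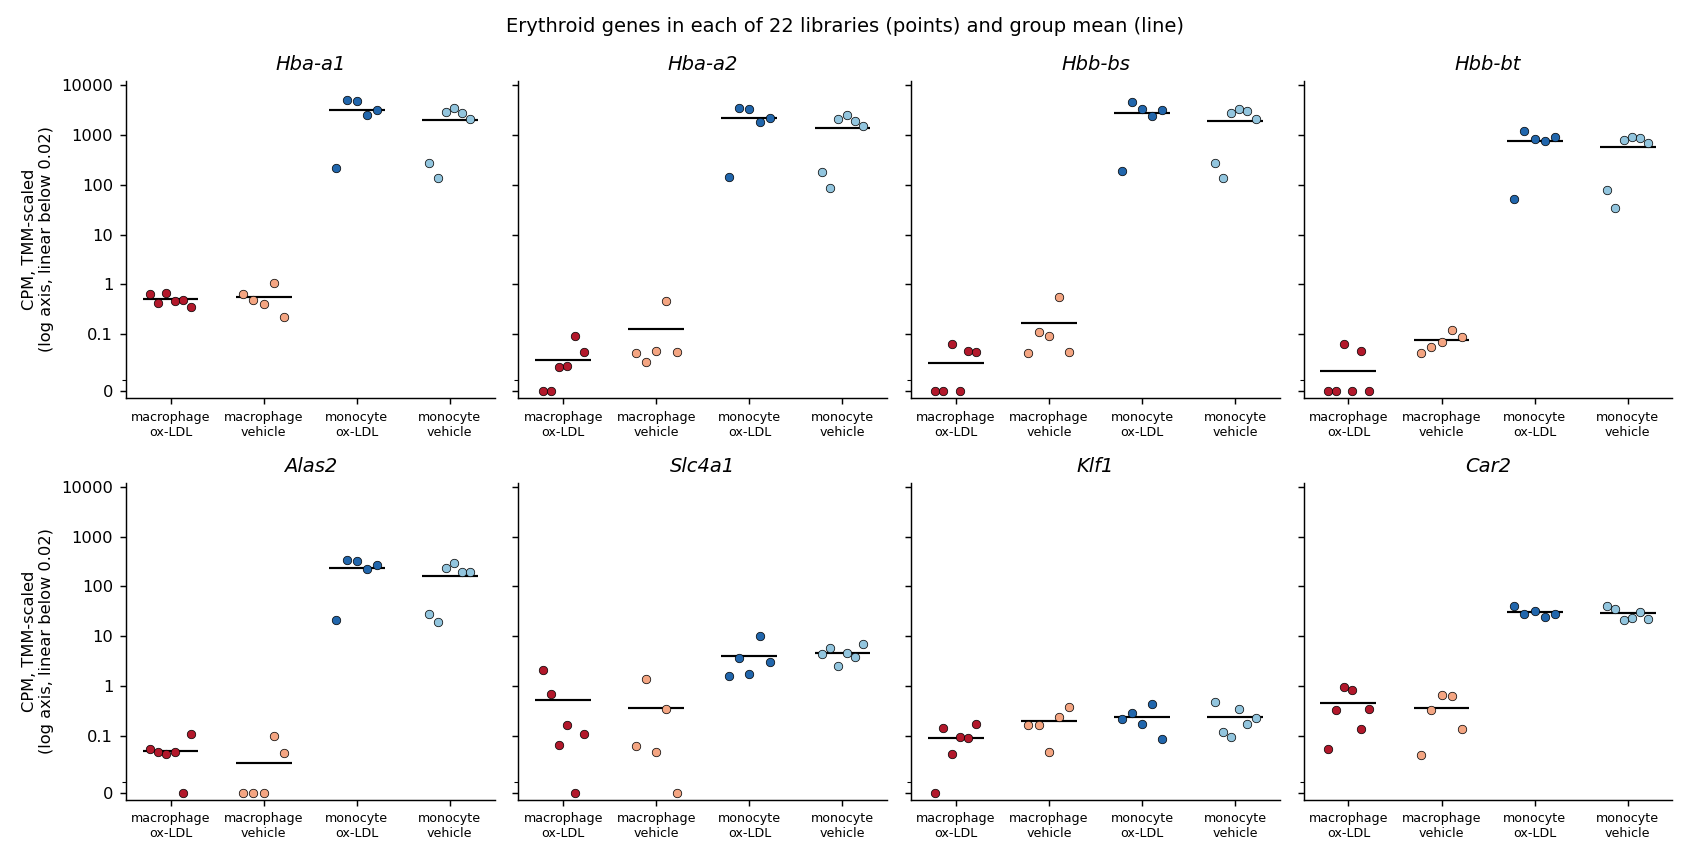
Level of each gene in each of the 22 libraries, in TMM-scaled CPM on a log axis that is linear below 0.02; points are libraries and lines are group means, with macrophages on the left and monocytes on the right. The haemoglobin genes and Alas2 fill 2 separate bands in monocytes, with replicate 7 (ox-LDL) and replicates 1 and 2 (vehicle) low, and lie near the detection limit in macrophages.

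Per unit of transcript length, Hba-a1, Hbb-bs and Hba-a2 had the highest averages of the 8 genes in monocytes. In the deposited TPM (transcripts per 1000000, a per-length scale), Hba-a1 averaged 8275 ± 5900 over the 11 monocyte libraries, Hbb-bs 7855 ± 5153, Hba-a2 7016 ± 4981 and Hbb-bt 2433 ± 1531 (SD, n = 11 each). Alas2 followed at 218 ± 139 TPM, then Car2 at 34.4 ± 10.9, Slc4a1 at 2.49 ± 1.45 and Klf1 at 0.443 ± 0.258 TPM (SD, n = 11 each). Within libraries, Hba-a1 was above Hba-a2 in 11 of 11 monocyte libraries and Hba-a2 above Hbb-bt in 11 of 11. Hbb-bs was above Hba-a2 in 10 of 11, while Hba-a1 was above Hbb-bs in 5 of 11, so those leading genes of the alpha and beta pairs had no steady order. In the 11 macrophage libraries the order was different: Hba-a1 averaged 1.81 ± 0.728 TPM, and the other 7 genes averaged between 0.0467 TPM (Alas2) and 0.474 TPM (Car2), with ranges that overlapped.

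The haemoglobin genes varied far more among monocyte libraries than with treatment. Hba-a1, an alpha chain gene, had 213, 5005, 4883, 2559 and 3165 CPM in monocytes with ox-LDL (replicates 7 to 11), against 268, 137, 2917, 3532, 2755 and 2111 CPM in monocytes with vehicle (replicates 1 to 6). Replicate 7 with ox-LDL and replicates 1 and 2 with vehicle were low, the other 8 libraries were all at or above 2111 CPM, and the treatment groups overlapped. Across the 11 libraries the highest value was 36.6 times the lowest.

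Hba-a2, its near-identical copy, had 144, 3441, 3364, 1815 and 2156 CPM with ox-LDL, against 181, 85.5, 2096, 2477, 1920 and 1494 CPM with vehicle. Hbb-bs, a beta chain gene, had 185, 4487, 3240, 2383 and 3167 CPM with ox-LDL, against 275, 134, 2772, 3225, 2945 and 2093 CPM with vehicle. Hbb-bt, the other adult beta gene, had 51.7, 1190.0, 827, 745 and 893 CPM with ox-LDL, against 77.0, 33.6, 790, 910, 884 and 679 CPM with vehicle. In all 3 genes the same 3 libraries were low and the treatment groups overlapped.

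Alas2, which makes the first intermediate of heme in erythroid cells and is encoded apart from the housekeeping enzyme Alas1, had 21.4, 346, 320, 229 and 270 CPM with ox-LDL, against 27.7, 19.0, 234, 291, 199 and 194 CPM with vehicle. It was low in the same 3 libraries, and its highest value was 18.1 times its lowest. Alas1 ran between 131 and 323 CPM in the 11 libraries and did not have these as its 3 lowest. Replicates 2 and 1 were its lowest, at 131 and 139 CPM. Replicate 7, at 186 CPM, lay above vehicle replicates 4 and 3, at 141 and 150 CPM.

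The other 3 genes behaved differently. Slc4a1, which encodes band 3 of the red cell membrane, had 1.63, 3.66, 1.77, 10.3 and 3.08 CPM with ox-LDL, against 4.34, 5.76, 2.50, 4.56, 3.93 and 6.97 CPM with vehicle, and replicate 10 stood above the rest. Klf1 had only 4 to 20 counts per library with ox-LDL and 5 to 23 with vehicle, which is 0.0860 to 0.448 CPM with ox-LDL and 0.0961 to 0.490 CPM with vehicle. Car2, a carbonic anhydrase of red cells that other cells, osteoclasts among them, also make, had 40.8, 27.6, 31.9, 24.4 and 28.4 CPM with ox-LDL, against 41.1, 36.1, 21.3, 23.4, 30.1 and 22.3 CPM with vehicle. Its 3 highest libraries were the 3 in which the haemoglobin genes were lowest, and its highest value was only 1.93 times its lowest.

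Replicates 7, 1 and 2 were thus the 3 lowest of the 11 monocyte libraries for 5 of the 8 genes (the 4 haemoglobin genes and Alas2) and the 3 highest for Car2. Of 14237 genes that averaged 0.5 CPM or more in these libraries, 2.29% had these libraries as their 3 lowest and 3.84% as their 3 highest. The libraries were known from earlier results to be the lowest in erythroid markers, so the count describes the pattern and does not test it. Summed neutrophil markers in replicates 7, 1 and 2 were 4666, 5767 and 5278 CPM, within the range of the low group of 7. Summed B cell markers were 571, 845 and 660 CPM in these 3 libraries and 220.4 to 492.6 CPM in the other 8. T cell markers summed to 236, 216 and 243 CPM in the 3 and 95.8 to 235 CPM in the other 8. Red pulp macrophage markers summed to 2984, 2345 and 2203 CPM in the 3 and 972 to 2628 CPM in the other 8. The part of these cells in the haemoglobin pattern was not tested.

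**Figure D2:**
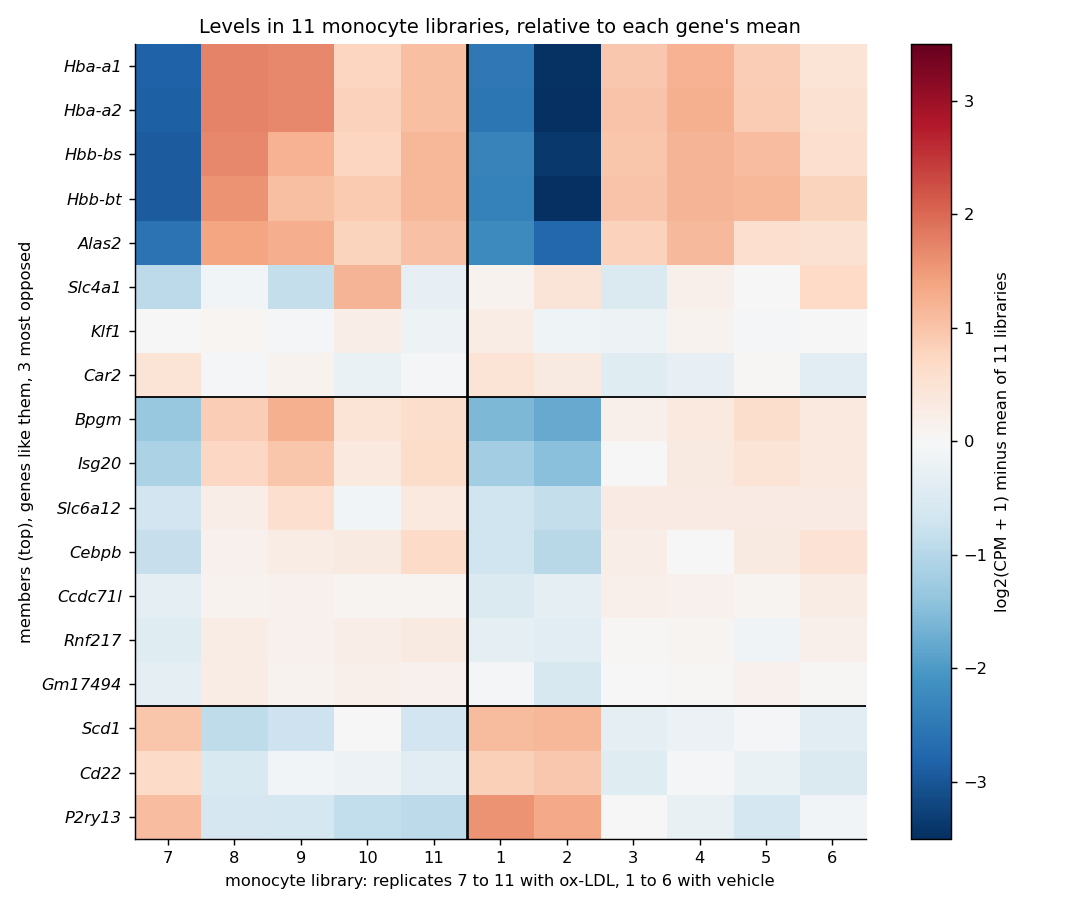
Level of each gene (rows) in each monocyte library (columns, ox-LDL left, vehicle right) as log2(CPM + 1) minus the gene's mean over the 11 libraries; blue is low and red is high. Replicates 7, 1 and 2 are dark blue for the haemoglobin genes and Alas2, while Slc4a1, Klf1 and Car2 are close to white.

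Ratios within a library were much steadier than levels. The ratio of Hba-a1 to Hba-a2 in TPM lay between 1.14 and 1.31 in the 11 monocyte libraries, including those in which both genes were low. Hbb-bs exceeded Hbb-bt by 2.82 to 3.64 times. The way reads that fit both copies were counted can shape these ratios within a pair, and its part was not tested. The sum of the alpha genes over the sum of the beta genes was 1.52, 1.503, 2.05, 1.41 and 1.32 with ox-LDL, against 1.28, 1.34, 1.42, 1.47, 1.23 and 1.31 with vehicle. Replicate 9 stood above the others and the groups overlapped.

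The ratio of haemoglobin to Alas2 varied more. The 4 haemoglobin rows together had 89.1, 131, 124, 105 and 111 times the TPM of Alas2 with ox-LDL, against 92.9, 65.5, 118, 112, 137 and 106 times with vehicle. The 3 lowest ratios were in replicates 7, 1 and 2, the libraries with the least haemoglobin. Alas2 over Slc4a1 spanned 6.73 to 368, and Alas2 over Car2 spanned 0.528 to 12.6, so neither of these genes kept a steady proportion to Alas2.

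**Figure D3:**
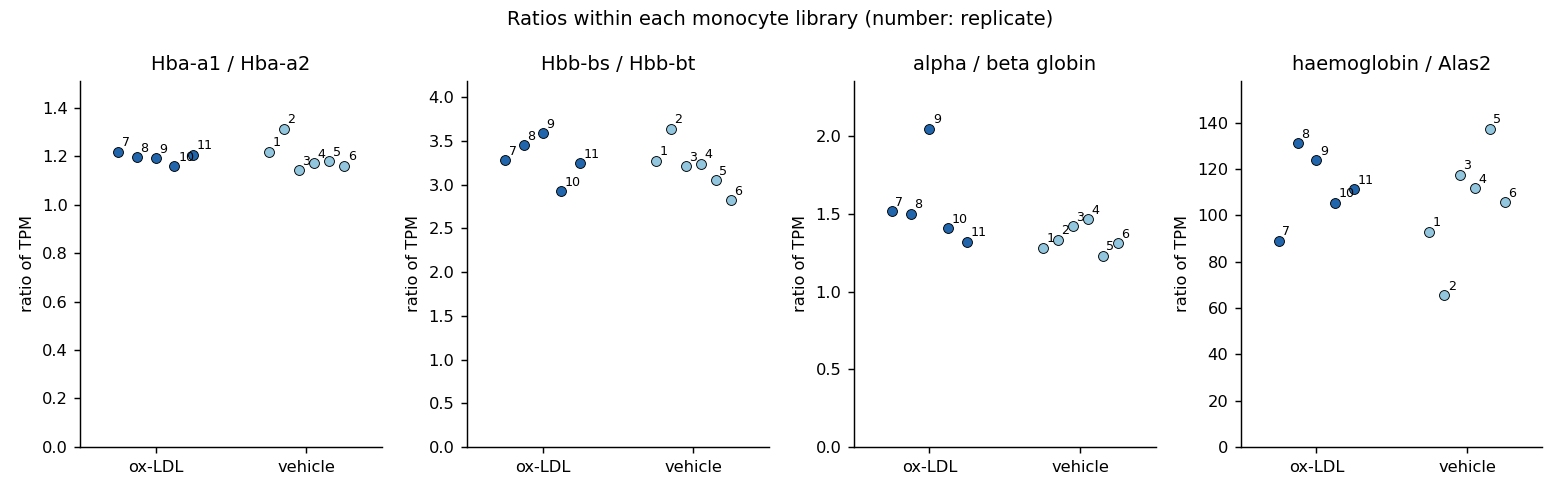
Ratios of TPM within each monocyte library, by treatment, with the replicate number beside each point. The ratio of the alpha copies stays between 1.14 and 1.31 and that of the beta copies between 2.82 and 3.64; replicate 9 is highest in alpha over beta, at 2.05, and replicate 2 lowest in haemoglobin over Alas2, at 65.5.

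Genes outside the list that varied like the haemoglobin genes and Alas2 included Bpgm, which acts in red cells. Likeness was Pearson's r between a gene's log2(CPM + 1) and the mean centred profile of the 8 genes over the 11 monocyte libraries, among 9452 genes that averaged 5 CPM or more. Among the highest were Bpgm (r = 0.967), Isg20 (0.966), Slc6a12 (0.940), Cebpb (0.916), Ccdc71l (0.916), Rnf217 (0.915) and Gm17494 (0.904). Bpgm encodes bisphosphoglycerate mutase, which lowers the oxygen affinity of haemoglobin through its product. Isg20 encodes an exonuclease, and Cebpb a transcription factor of myeloid cells.

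These values rest on 3 libraries. Without replicates 1, 2 and 7, r was 0.640 for Bpgm, 0.630 for Isg20, 0.0608 for Slc6a12 and 0.704 for Gm17494, and it was negative for Cebpb (-0.48) and Ccdc71l (-0.53). The 4 haemoglobin genes and Alas2, which enter the profile, kept r between 0.840 and 0.877 over the remaining 8 libraries. Car2, which also enters it, had r = -0.771 over the 11 libraries and 0.489 over the remaining 8. Slc4a1 and Klf1 enter it too but averaged under 5 CPM, so no r was taken for them. The points share libraries, and no p is given.

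Bpgm had 24.1, 114, 148, 86.1 and 94.9 CPM with ox-LDL, replicates 7 to 11, and 20.0, 17.6, 70.6, 78.9, 96.0 and 78.0 CPM with vehicle, replicates 1 to 6. It was low in the same 3 libraries.

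The wider erythroid lists followed this split only in part. Replicates 1, 2 and 7 were the 3 lowest libraries for 2 of 16 genes of heme synthesis and mitochondrial iron (Alas2 and Tspo2, an erythroid relative of the mitochondrial translocator protein). In the list of red cell enzymes and proteostasis, they were lowest for Bpgm, Gpx1 and Isg20, among others. They were lowest for 0 of 11 erythroid transcription factors, 0 of 4 receptors of erythroid growth and iron uptake, and 1 of 2 minor globins (Hbq1a). Among 12 genes of haemoglobin and heme clearance, 0 were lowest there and 2 were highest, Cd163, the haemoglobin scavenger receptor, and Vcam1, an adhesion receptor of red pulp macrophages. All of these counts are of genes that averaged 0.5 CPM or more, and those named were picked for this pattern after their values were seen.

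Cd163 had 11.5, 3.30, 2.56, 2.87 and 1.46 CPM with ox-LDL, and 10.2 and 11.8 CPM in vehicle replicates 1 and 2, against 0.945 to 4.88 CPM in vehicle replicates 3 to 6.

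The labels name monocytes, and the erythroid signal in them was uneven across erythroid markers. Of 13 erythroid markers listed, 12 were found, and they summed to 629 to 14487 CPM in monocytes with ox-LDL and to 425 to 10453 CPM in monocytes with vehicle. Klf1, Rhag (of the Rh membrane complex) and Car1 (a red cell carbonic anhydrase) stayed below 1 CPM in every monocyte library, while Hba-a1 reached 5005 CPM. Gata1 averaged 0.360 ± 0.414 CPM with ox-LDL (n = 5) and 0.374 ± 0.265 CPM with vehicle (n = 6, SD). Tfrc, the transferrin receptor, averaged 43.1 ± 4.42 CPM with ox-LDL (n = 5) and 29.2 ± 6.48 CPM with vehicle (n = 6, SD).

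No haemoglobin or erythroid gene was called between ox-LDL and vehicle in monocytes. Hba-a1 averaged 3165 ± 1963 CPM with ox-LDL (SD, n = 5) and 1953 ± 1430 CPM with vehicle (SD, n = 6). Its log2 fold change was 0.69 ± 0.78, with its standard error, and its adjusted p was 0.832 in edgeR's quasi-likelihood test, which gave all fits below. The other haemoglobin genes had log2 fold changes of 0.66 ± 0.79 (Hba-a2), 0.49 ± 0.77 (Hbb-bs) and 0.39 ± 0.78 (Hbb-bt), with adjusted p between 0.843 and 0.918. Alas2 averaged 237 ± 129 CPM with ox-LDL and 161 ± 112 CPM with vehicle, a log2 fold change of 0.56 ± 0.69 (adjusted p = 0.848). The log2 fold changes were -0.20 ± 0.44 for Slc4a1, 0.0036 ± 0.52 for Klf1 and 0.07 ± 0.20 for Car2. Of the 8 genes, 0 passed an adjusted p of 0.05, 0 passed an unadjusted p of 0.05, and DESeq2 and limma voom also called 0. Among all 16575 genes tested, 0.0241% passed the adjusted threshold and 10.4% the unadjusted threshold. Standard errors near 0.8 for the haemoglobin genes leave changes of either sign possible.

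Leaving out replicates 1, 2 and 7 brought the errors and the fold changes of the haemoglobin genes and Alas2 down. These replicates were left out because they were lowest in erythroid markers, these same genes among them. The smaller errors therefore follow from the choice and are not a result. Hba-a1 then averaged 3903 ± 1228 CPM with ox-LDL and 2829 ± 584 CPM with vehicle (SD, n = 4 each), a log2 fold change of 0.45 ± 0.25 (adjusted p = 0.652). Hbb-bs had 0.26 ± 0.22 (adjusted p = 0.786) and Alas2 0.33 ± 0.19 (adjusted p = 0.668). Slc4a1 turned to 0.06 ± 0.50 (adjusted p = 0.986). Without the 4 libraries high in neutrophil markers, Hba-a1 had 0.95 ± 1.08 (adjusted p = 0.721) and Slc4a1 had -0.89 ± 0.36 (adjusted p = 0.268).

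**Figure D4:**
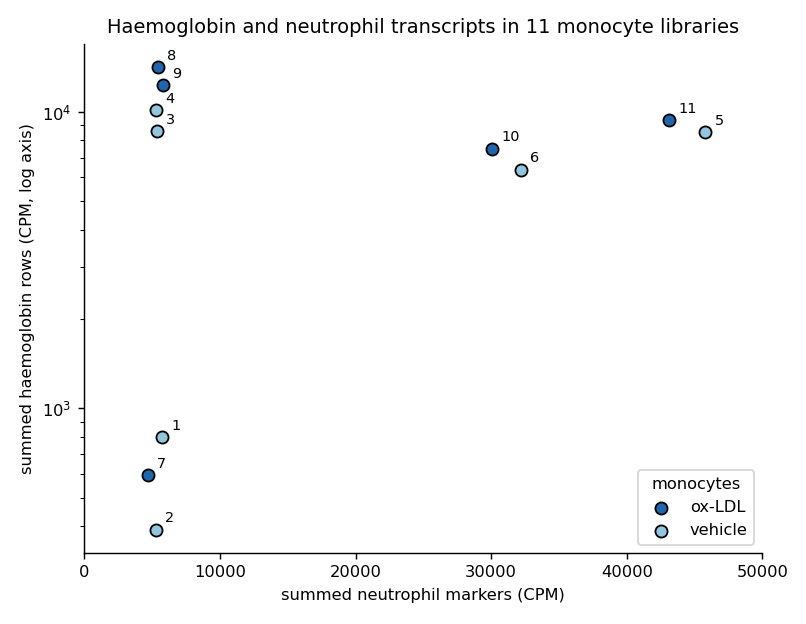
Summed haemoglobin rows (CPM, log axis) against summed neutrophil markers (CPM) in the 11 monocyte libraries, with replicate numbers. Replicates 7, 1 and 2 hold 390 to 801 CPM of haemoglobin and few neutrophil transcripts; both kinds of split cut across the ox-LDL and vehicle groups.

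In the wider erythroid lists, edgeR's fit of the monocyte libraries called 0 genes of 85 tested outside the 8. DESeq2 called 1 higher (Slc40a1, the iron exporter ferroportin), and 1 edgeR fit over all 4 groups called 3 higher (Slc40a1, Cat and Ftl1), genes named after their values were seen. Of 16 genes of heme synthesis and mitochondrial iron tested, 0 were called, and their median log2 fold change was 0.12, against -0.0016 over all genes tested. The 3 of this list with the highest levels outside the 8 genes were Alas1 (241 ± 54.9 CPM with ox-LDL and 167 ± 44.1 CPM with vehicle, adjusted p = 0.373), Flvcr1, a heme exporter (153 ± 42.5 CPM with ox-LDL and 152 ± 32.3 CPM with vehicle), and Tmem14c, a mitochondrial carrier of heme precursors (82.7 ± 23.7 CPM with ox-LDL and 84.0 ± 17.4 CPM with vehicle; SD, n = 5 and 6).

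Of 15 erythroid transcription factors tested, 0 were called (median -0.09). Nfe2, which is also made by megakaryocytes and neutrophils, averaged 83.4 ± 71.9 CPM with ox-LDL and 85.0 ± 83.1 CPM with vehicle. It was 157 and 167 CPM in ox-LDL replicates 10 and 11 and 207 and 176 CPM in vehicle replicates 5 and 6, the libraries high in neutrophil markers, and 28.9 to 34.7 CPM in the other 7. E2f4 averaged 77.0 ± 5.21 CPM with ox-LDL and 75.9 ± 7.82 CPM with vehicle, and E2f2 57.2 ± 20.4 CPM with ox-LDL and 65.5 ± 21.9 CPM with vehicle.

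Of 19 red cell membrane and skeleton genes tested, 0 were called (median 0.02), and the 3 with the highest levels were Gypc, glycophorin C, Epb41, protein 4.1, and Cd24a. Of 16 red cell enzyme and proteostasis genes, 0 were called (median 0.17). Catalase (Cat) averaged 488 ± 47.5 CPM with ox-LDL and 338 ± 57.7 CPM with vehicle, with a log2 fold change of 0.53 ± 0.14 and an adjusted p of 0.236. Gpx1, a glutathione peroxidase, and Ucp2, a mitochondrial carrier, had log2 fold changes of -0.08 ± 0.21 and -0.40 ± 0.22.

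Of 5 receptor and iron uptake genes, 0 were called. Kit, the stem cell factor receptor, averaged 250.1 ± 31.7 CPM with ox-LDL and 320 ± 86.9 CPM with vehicle, and Epor, the erythropoietin receptor, 5.85 ± 2.51 CPM with ox-LDL and 6.03 ± 3.42 CPM with vehicle. The minor globins were rare: Hbq1b averaged 0.987 ± 0.307 CPM with ox-LDL and 0.629 ± 0.357 CPM with vehicle, and of 2 tested in the list 0 were called. Among globin-like genes and other carbonic anhydrases, 0 of 5 tested were called; Car13, Car9 and Car7, the most abundant, averaged 3.43 to 7.58 CPM with ox-LDL and 3.83 to 5.76 CPM with vehicle.

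Of 12 genes of haemoglobin and heme clearance, 0 were called (median 0.48, against -0.0016 over all genes). Hmox1, heme oxygenase, averaged 2014 ± 439 CPM with ox-LDL and 1421 ± 264 CPM with vehicle (log2 fold change 0.50 ± 0.17, adjusted p = 0.325). The ferritin chain genes Fth1 and Ftl1 had log2 fold changes of 0.51 ± 0.21 and 0.53 ± 0.15, with adjusted p of 0.426 and 0.267.

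In macrophages, the erythroid genes were near the limit of detection with either treatment. Hba-a1 had 24, 18, 31, 20, 21 and 16 counts with ox-LDL (replicates G to L), against 31, 18, 17, 43 and 10 with vehicle (A to E). Hba-a2 had 0, 0, 1, 1, 4 and 2 counts with ox-LDL, against 2, 1, 2, 19 and 2 with vehicle. Hbb-bs had 0, 0, 3, 0, 2 and 2 counts with ox-LDL, against 2, 4, 4, 23 and 2 with vehicle. Replicate D with vehicle was the highest for all 3, and the groups overlapped.

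The alpha copies were less balanced in macrophages than in monocytes. Over the libraries, Hba-a1 had 130 counts with ox-LDL and 119 with vehicle, and Hba-a2 had 8 with ox-LDL and 26 with vehicle, whereas in each monocyte library Hba-a1 had 1.39 to 1.60 times the counts of Hba-a2. This difference was not tested. Hba-a1 was the only haemoglobin row with counts in all 11 macrophage libraries.

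Hbb-bt had 0 to 3 counts with ox-LDL and 2 to 5 with vehicle, and Alas2 0 to 5 with ox-LDL and 0 to 4 with vehicle. Slc4a1 had 76, 30, 3, 7, 0 and 5 counts with ox-LDL, against 3, 51, 2, 14 and 0 with vehicle. Klf1 had 0 to 8 with ox-LDL and 2 to 17 with vehicle, and Car2 2 to 45 with ox-LDL and 2 to 28 with vehicle. The treatment groups overlapped for all 5 genes.

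Only Hba-a1 and Car2 passed the filter on low counts in macrophages, and 0 of these 2 were called. Hba-a1 averaged 0.512 ± 0.127 CPM with ox-LDL (n = 6) and 0.567 ± 0.314 CPM with vehicle (n = 5); the log2 fold change was -0.14 ± 0.35 (adjusted p = 0.921). Car2 averaged 0.451 CPM with ox-LDL and 0.362 CPM with vehicle, a log2 fold change of 0.35 ± 0.68 (adjusted p = 0.886). Neither passed an unadjusted p of 0.05, and DESeq2 and limma voom called 0. Among all 14543 genes tested, 2.35% passed the adjusted threshold and 14.2% the unadjusted threshold.

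Other genes of the lists were called with ox-LDL in macrophages, where 0.976% of all genes tested were called higher and 1.38% lower (142 and 200 genes, against 92 and 334 when scaled by library totals and 6 and 74 in 1 fit over all 4 groups), and those named are not specific to red cells. Alas1 rose to 285 ± 20.3 CPM with ox-LDL, against 236 ± 13.6 CPM with vehicle (log2 fold change 0.28 ± 0.06, adjusted p = 0.0407), the 1 gene called of 14 in the heme list. Cat rose to 1415 ± 155 CPM with ox-LDL, against 970 ± 106 CPM with vehicle (0.55 ± 0.09, adjusted p = 0.00670). Gpx1 fell to 549 ± 61.8 CPM with ox-LDL, against 805 ± 96.8 CPM with vehicle (-0.54 ± 0.09, adjusted p = 0.00809), and Ucp2 fell to 1670.1 ± 77.5 CPM with ox-LDL, against 2254 ± 208 CPM with vehicle (-0.42 ± 0.07, adjusted p = 0.00421). These were 1 higher and 2 lower of 14 enzyme genes tested.

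Tfrc rose to 131 ± 19.3 CPM with ox-LDL, against 91.6 ± 17.0 CPM with vehicle (0.53 ± 0.13, adjusted p = 0.0442), 1 of 4 receptor genes tested. Ftl1 rose to 10464 ± 664 CPM with ox-LDL, against 8414 ± 673 CPM with vehicle (0.32 ± 0.07, adjusted p = 0.0298), 1 of 12 clearance genes tested. These calls were unequally stable. Over 19 other settings Cat was called in 19, and Gpx1 and Ucp2 in 18 each, all but 1 fit over all 4 groups (adjusted p = 0.213 and 0.481). Alas1 was called in 7, Tfrc in 8 and Ftl1 in 10 of the 19, with adjusted p up to 0.778, 0.211 and 0.431 in that fit, and the direction was the same in all 19 for each of the 6 genes. Leaving out any 1 of ox-LDL replicates H and L and vehicle replicates B, D and E ended the calls of Alas1, Tfrc and Ftl1. Alas1 also lost its call without G, I, J or A, Tfrc without I, J, K or A, and Ftl1 without G or C. Scaling by library totals ended those of Alas1 and Tfrc, and using no filter on low counts those of Alas1 and Ftl1. In the transcription factor, membrane and carbonic anhydrase lists 0 genes were called, of 11, 12 and 4 tested, and 0 minor globins could be tested. None of the 8 haemoglobin and erythroid genes was among those called.

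The ox-LDL effect did not differ detectably between the cell types for any of the 8 genes. The contrast, macrophage effect minus monocyte effect, was -0.81 ± 1.07 for Hba-a1 (adjusted p = 0.940) and -2.96 ± 1.89 for Hbb-bs (adjusted p = 0.808). For the other 6 it lay between -2.52 (Hba-a2) and 0.75 (Slc4a1), and 0 of 8 were called by edgeR, DESeq2 or limma voom. At an unadjusted p of 0.05, 0 of the 8 passed in edgeR. Of 17466 genes tested, 0.063% were called, and 7.22% passed the unadjusted threshold. With so few macrophage counts, large differences in either direction could not have been detected.

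Macrophages against monocytes gave the largest contrast. Every macrophage library had 5 days with PMA and no monocyte library did. Cell type, PMA and time in culture therefore cannot be told apart here. With vehicle, Hba-a1 averaged 0.567 ± 0.314 CPM in macrophages (SD, n = 5) and 1953 ± 1430 CPM in monocytes (SD, n = 6); the log2 fold change was -11.82 ± 1.06 (adjusted p = 4.11e-07). Hba-a2, Hbb-bs and Hbb-bt had log2 fold changes of -13.48, -13.53 and -12.87 (SE 1.16 to 1.24), with adjusted p of 3.42e-07 to 5.16e-07. Alas2 had -12.40 ± 1.11 (adjusted p = 3.70e-07), and Car2 -6.42 ± 0.47 (adjusted p = 4.81e-08). Slc4a1 fell by 3.78 ± 0.78 (adjusted p = 7.28e-04).

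Klf1 was the exception, at 0.202 CPM in macrophages and 0.242 CPM in monocytes with vehicle, a log2 fold change of -0.33 ± 0.53 (adjusted p = 0.604). Thus 7 of 8 genes were lower in macrophages, where 35.1% of the 16288 genes tested were lower. Hba-a2, Hbb-bs, Hbb-bt, Alas2 and Slc4a1 did not pass the filter in macrophages alone. They entered this comparison through the monocyte libraries, so only a lower call was open to them and their direction was not tested. The libraries of the 2 cell types did not overlap for the 7 genes called lower, as for 24.9% of all genes, which were lower in every macrophage library. The median log2 fold change of all genes was -0.09. For genes with a few counts in macrophages, the fitted fold change depends on those few reads. Without macrophage replicate D, the log2 fold changes were -14.99 for Hba-a2, -14.71 for Hbb-bs and -13.49 for Alas2, and without replicate B that of Slc4a1 was -5.44. With the alpha copies summed to 1 row, it was -12.31.

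With ox-LDL, 7 of the 7 genes tested were lower in macrophages, where 35% of 15825 genes tested were lower, and Klf1 did not pass the filter. Only Hba-a1 and Car2 passed it in macrophages alone. The others entered through the monocyte libraries, so only a lower call was open to them. The libraries did not overlap for 6 of the 7 genes, as for 24.9% of all genes tested, while Slc4a1 in macrophage replicate G lay above 2 monocyte libraries. Hba-a1 averaged 0.512 ± 0.127 CPM in macrophages (SD, n = 6) and 3165 ± 1963 CPM in monocytes (SD, n = 5); the log2 fold change was -12.64 ± 0.79 (adjusted p = 1.73e-08). Hba-a2, Hbb-bs and Hbb-bt had log2 fold changes of -16.01, -16.49 and -15.06, and Alas2 -12.16 ± 0.80 (adjusted p = 2.67e-08). Car2 fell by 6.11 ± 0.45 (adjusted p = 8.77e-08). Slc4a1 fell by 3.04 ± 0.89 (adjusted p = 0.00864), but without the 4 monocyte libraries high in neutrophil markers it had -2.28 ± 0.94 (adjusted p = 0.0508). Leaving out monocyte replicate 10 alone gave -2.37 for Slc4a1 (adjusted p = 0.0333), and leaving out macrophage replicate G gave -4.32 (adjusted p = 5.62e-04). Without macrophage replicate I, Hbb-bt had -15.91, and without replicate K, Hba-a2 had -16.67. With copies summed, the alpha pair had a log2 fold change of -13.31 and the beta pair of -16.13.

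Without replicates 1, 2 and 7, the log2 fold changes of the haemoglobin genes and Alas2 in macrophages against monocytes were -14.06 to -12.36 with vehicle and -16.80 to -12.46 with ox-LDL. Neutrophil markers summed to 25.7 to 93.7 CPM in macrophage libraries and to 4666 to 45801 CPM in monocyte libraries, and dendritic cell markers to 1.38 to 17.7 CPM in macrophage and 7237 to 12201 CPM in monocyte libraries, so these transcripts were also lower in macrophages. The part of these cells in the difference was not tested. The 2 comparisons share no library.

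**Figure D5:**
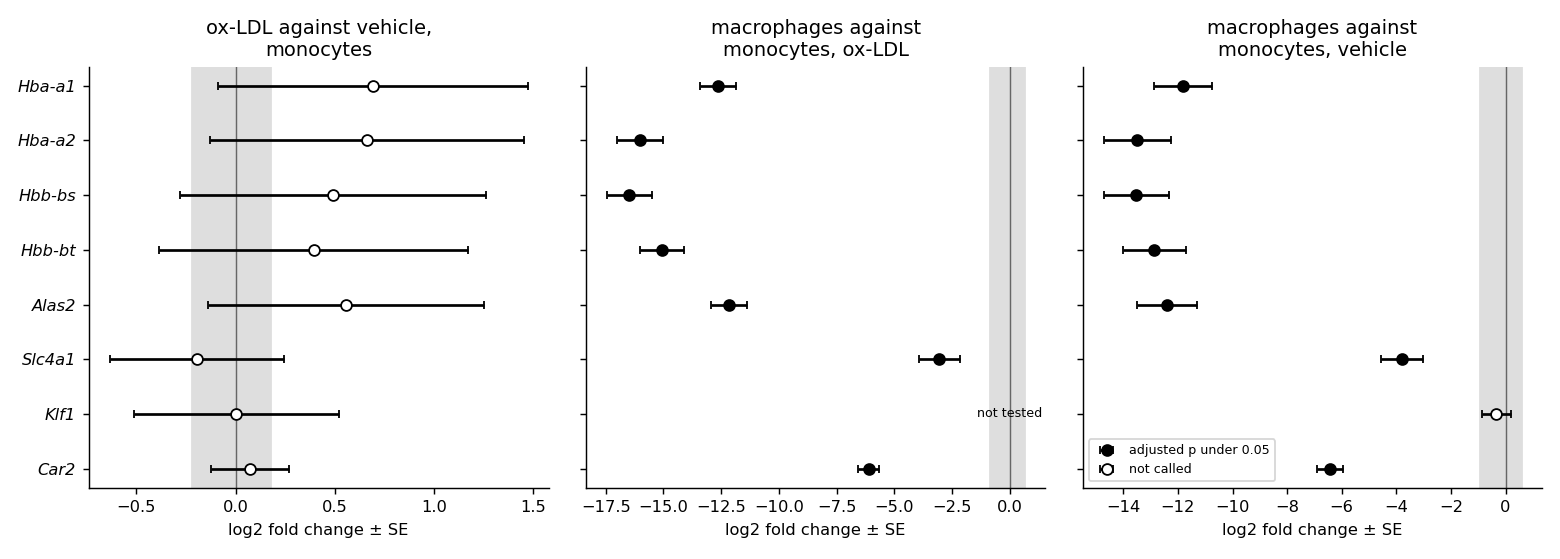
Log2 fold change with its standard error for the 8 genes in 3 comparisons; filled points have an adjusted p under 0.05, and the grey band holds the middle quartiles of all genes tested. With ox-LDL in monocytes every error bar spans or nears 0, while in macrophages against monocytes 7 genes lie far below the band and Klf1 does not.

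The wider lists were mixed between the cell types, where 28.5% of all genes tested were higher in macrophages with vehicle and 30.3% with ox-LDL. With vehicle, heme synthesis and mitochondrial iron genes were 6 higher and 7 lower of 16 in macrophages, transcription factors 7 and 7 of 15, membrane genes 3 and 10 of 16, enzymes 4 and 7 of 16, receptors 3 and 1 of 5, and clearance genes 6 and 3 of 12. With ox-LDL these were 7 and 6 of 16, 6 and 6 of 13, 3 and 11 of 17, 2 and 8 of 16, 2 and 1 of 4, and 3 and 5 of 12. Globin-like and carbonic anhydrase genes had 2 higher and 2 lower of 5 with either treatment, and the 1 minor globin tested, Hbq1b, was lower in both. In the membrane list the median log2 fold change was -1.85 with vehicle and -1.64 with ox-LDL, against -0.09 and -0.07 over all genes tested.

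Among abundant genes of these lists, Gypc averaged 10.1 ± 1.19 CPM in macrophages and 281 ± 50.6 CPM in monocytes with vehicle, a log2 fold change of -4.88 (adjusted p = 5.69e-11). Kit averaged 0.128 ± 0.124 CPM in macrophages and 320 ± 86.9 CPM in monocytes with vehicle (-11.38, adjusted p = 3.45e-10). Tfrc was higher in macrophages, at 91.6 ± 17.0 CPM in macrophages and 29.2 ± 6.48 CPM in monocytes with vehicle (log2 fold change 1.57, adjusted p = 4.15e-06), and so did Fth1, at 43784 ± 3762 CPM in macrophages and 14758 ± 2857 CPM in monocytes with vehicle (1.49, adjusted p = 7.37e-07).

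Of the genes most like the haemoglobin profile among monocyte libraries, Bpgm had a log2 fold change of -3.20 in macrophages against monocytes with vehicle (adjusted p = 1.28e-05), whereas Cebpb averaged 264 CPM in macrophages with vehicle and had a log2 fold change of 0.17 (adjusted p = 0.530).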

How the data were processed

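Polyadenylated RNA of 22 libraries was sequenced after a SMARTer low-input kit, per the labels. Reads were aligned with STAR 2.7.9a and counted with featureCounts 2.0.3 (Subread) on GRCm38, per the submitters' processing notes. The authors deposited raw counts of reads per gene. The CPM column deposited with them is the count per 1000000 counts, the deposited FPKM column divides this by gene length in kilobases, and the deposited TPM column adds up to 1000000 in each library; 0 values departed from these relations. Strand setting and the handling of multi-mapping reads: not given in the sources used here.

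Tests started from the counts: edgeR 4.0.16 (R 4.3.3), TMM factors, filterByExpr, quasi-likelihood F test, 2-sided, Benjamini-Hochberg adjustment over all genes tested, with an adjusted p under 0.05 as the threshold and no covariate. The fit was run on simulated counts with the same spread for every gene and changes only in well-counted genes. That setting does not cover the wide spread of the haemoglobin genes in monocytes or the few counts in macrophages. CPM in the text carry TMM factors over all libraries; ratios and levels between genes use the deposited TPM, and the deposited CPM and FPKM served only for the check. The depth was 37.3 to 50.3 (units of 1000000 counts) per library. The floor of 3 counts is a fixed setting that no test used, and it covers counting error only. DESeq2 1.42.0, limma 3.58.1, other scalings, no filter, pairs of copies summed, haemoglobin rows left out of the totals, 1 fit over all 4 groups and leaving libraries out were the alternatives. Named genes were the 8 members, the 3 most abundant others of each list and the 8 most like the profile. The members and lists were chosen with earlier results of these data known. Some genes of the lists are not reported here. 0 pairs of libraries were identical.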

Additional observations from a re-analysis of the deposited data

Results flagged for a closer look

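Of 40 sets of values within a group examined for a library far from the others, 6 held one. The cut-off gives about 1 in 20 by chance only for independent values with a normal spread. These sets share libraries and some rest on few counts, so 6 of 40 cannot be read as more than chance gives. Slc4a1 was 10.25 CPM in replicate 10 of monocytes with ox-LDL, where the next was 3.662 CPM. The ratio of alpha to beta globin in TPM was 2.05 in replicate 9 of monocytes with ox-LDL, where the next was 1.518. Slc4a1 was 2.078 CPM in replicate G of macrophages with ox-LDL, where the next was 0.7124 CPM, and 1.403 CPM in replicate B of macrophages with vehicle, where the next was 0.3431 CPM. Replicate D of macrophages with vehicle had 0.4656 CPM of Hba-a2, where the next was 0.04733 CPM, and 0.5636 CPM of Hbb-bs, where the next was 0.11 CPM.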

How the results depend on the processing

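No paired analysis was possible because the groups share no replicate numbers. The number of members called was 0 for ox-LDL in monocytes, 0 in macrophages and 0 for the difference of the 2 effects under every alternative run, and 7 for macrophages against monocytes with vehicle. With ox-LDL it was 7, with 6 when the 4 libraries high in neutrophil markers were left out and 8 in 1 fit over all 4 groups. Directions that turned belong to members that were not called. For ox-LDL in monocytes, Slc4a1 became 0.0557 without replicates 1, 2 and 7, and Klf1 became -0.0079 with RLE factors, -0.0417 with library totals, -0.0078 with DESeq2, -0.0067 with haemoglobin rows out of the totals, -0.0254 in 1 fit over all groups and -0.2231 without the 4 neutrophil-rich libraries. Leaving out each library in turn gave, for ox-LDL in monocytes, -0.89 to 0.0086 for Slc4a1, -0.34 to 0.33 for Klf1 and -0.049 to 0.20 for Car2. For ox-LDL in macrophages it gave -0.34 to 0.20 for Hba-a1 and -0.028 to 0.70 for Car2, and for the difference of the effects -0.13 to 1.36 for Alas2, -0.52 to 2.42 for Slc4a1 and -0.060 to 0.68 for Car2. The cause was not tested. Counts over all genes moved more than those of the 8. For ox-LDL in monocytes, edgeR called 4 higher and 0 lower, DESeq2 88 and 63, 1 fit over all 4 groups 150 and 109, and the fit without the filter 7 and 2. Leaving out any 1 of replicates 8, 9, 11, 1, 2, 4, 5 and 6 gave 0 and 0, replicate 3 gave 1 and 0, replicate 7 gave 7 and 0 and replicate 10 gave 6 and 2. Leaving out replicates 5, 6, 10 and 11 together, or 1, 2 and 7 together, also gave 0 and 0. At an unadjusted p under 0.05, the fits that gave 0 and 0 passed 1219 to 2689 genes. For ox-LDL in macrophages, 142 were called higher and 200 lower, against 92 and 334 with library totals, 305 and 393 with DESeq2 and 6 and 74 in 1 fit over all 4 groups. Without any 1 of replicates G, H, K, L, B, C, D and E, 51 to 89 were higher and 97 to 178 lower, the fewest higher without E (51 and 99) and the fewest lower without B (53 and 97). For the difference of the effects, 1 was higher and 10 lower, against 18 and 44 with DESeq2, 0 and 5 with library totals, 85 and 44 without the 4 neutrophil-rich libraries, 1 and 3 without replicates 1, 2 and 7, and 0 to 23 higher and 1 to 21 lower without 1 library, the most without monocyte replicate 10. The settings for genes outside the 8 were added after the data were seen. Depth limits the macrophage values, most of which rest on fewer than 50 counts.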
